A study of Mus musculus with 8 samples.

Results

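The 10 members of the insulin-like growth factor (IGF) system were followed through single-cell RNA sequencing of bone and bone marrow cells of mice. They are the ligands Igf1 and Igf2, the receptor Igf1r, the binding proteins Igfbp2, Igfbp3, Igfbp4, Igfbp5, Igfbp6 and Igfbp7, and Pappa, a protease that cuts binding proteins. The members were found by their symbols among the 32285 genes of each count matrix, and each symbol stood for 1 row in each of the 8 libraries. The 8 libraries came from 8 female mice, all with loxP-flanked alleles of Sox4, Sox11 and Sox12 (Sox4fl/fl Sox11fl/fl Sox12fl/fl), the genes of the SOXC transcription factors. Control mice carried no Cre. SOXCOsxCre mice, called mutants here, carried OsxCre in addition, a Cre transgene active mainly in cells of the osteoblast lineage, which doxycycline in the food had kept silent early in life. There were 2 control and 2 mutant mice at 7 weeks and 2 of each at 13 weeks, each mutant with a control sister of its age. Cells were digested from femurs and tibiae whose periosteum had been scraped off and whose marrow had been flushed out, and haematopoietic cells had been depleted with antibodies on magnetic beads.

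IGF1 and IGF2 are secreted proteins that signal for growth and survival through the receptor tyrosine kinase IGF1R. Outside the cell they are held by IGF-binding proteins, which prolong their presence and can block or deliver them, and proteases such as pregnancy-associated plasma protein A, the product of Pappa, release them again by cutting the binding protein. In bone, IGF1 comes both from the circulation, where liver makes most of it under growth hormone, and from local cells, and it acts on chondrocytes of the growth plate and on osteoblasts.

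After limits on genes and mitochondrial UMIs per cell and removal of doublets, 59629 cells were kept, between 6410 and 8753 per library. A UMI (unique molecular identifier) marks 1 captured RNA molecule. The replicate 1 libraries held 127864255 to 156090286 UMIs in all and the replicate 2 libraries 81894604 to 89283370, so the former were the deeper in every group. Between 10 and 24 cell barcodes were shared by each of the 28 pairs of libraries. Cells were clustered without the members, and 15 cell types were named from marker lists. Each name stands for a population that is like the named cell by its markers, so that Lepr+ MSC means mesenchymal stromal cell-like cells with leptin receptor. The others of the mesenchymal line were Sca1+ MSCs, Lepr+ osteoprogenitors (OPs), preosteoblasts (preOBs), osteoblasts (OBs) and osteocytes, for which 3 of 6 listed markers counted. Growth plate chondrocytes (GPCs), hypertrophic GPCs, pericytes, endothelial cells and 5 haematopoietic types made up the rest. Levels are UMIs per 1000000 UMIs of that type in a mouse (CPM). Sox4 in Lepr+ MSCs was at 437 and 399 CPM in the controls and 205 and 156 CPM in the mutants of 7 weeks, and 439 and 365 CPM in the controls and 159.8 and 141 CPM in the mutants of 13 weeks. Every mutant lay below every control (log2 change -1.30, SE 0.15, adjusted p = 0.00355), and the changes in OPs, preOBs, OBs and osteocytes, all called, were -1.36, -1.38, -1.56 and -1.79 (edgeR quasi-likelihood test, Benjamini-Hochberg adjustment). The Sox4 change in Sca1+ MSCs was -1.17 (adjusted p = 0.202), and Sox4 was not called in pericytes, endothelial or haematopoietic cells. Per the same test, Sox12 fell in OPs, preOBs and OBs by 1.85, 2.27 and 2.08 on the log2 scale, and Sox11 passed the filter on low counts in endothelial cells and GPCs only, without a call.

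Windows of 250 bases before annotated transcription starts were read from RefSeq (GRCm38.p6) for the 9 members other than Pappa, 13 windows in all, because the mutants lack transcription factors that bind a short sequence. The windows were searched on both strands for the letters ACAAAG and ACAATG, which are core SOX-type motifs, and 2 of the 13 held a match, against 25.2% of all 32851 windows. They belong to both ligands and are shown here with the match in capitals. Igf1 lies on chromosome 10 between 87858265 and 87937047, and Igf2 on chromosome 7 between 142650768 and 142666816. The Igf1 window (chr10:87860861-87861110, plus strand) lies within these bounds, before an annotated start inside the gene. No window before the first base of Igf1 was read. The window holds CTTTGT, the reverse complement of the first motif, 116 bases before that inner start. The Igf2 window (chr7:142661272-142661521, minus strand) precedes 1 of 4 annotated Igf2 starts and holds CATTGT, the reverse complement of the second, 56 bases before it. A match is a description of the letters only, and no binding was measured.
Igf1: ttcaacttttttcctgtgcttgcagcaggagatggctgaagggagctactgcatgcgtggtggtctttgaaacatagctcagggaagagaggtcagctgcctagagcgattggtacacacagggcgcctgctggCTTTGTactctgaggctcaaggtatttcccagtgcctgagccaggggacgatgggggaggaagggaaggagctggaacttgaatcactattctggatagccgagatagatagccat
Igf2: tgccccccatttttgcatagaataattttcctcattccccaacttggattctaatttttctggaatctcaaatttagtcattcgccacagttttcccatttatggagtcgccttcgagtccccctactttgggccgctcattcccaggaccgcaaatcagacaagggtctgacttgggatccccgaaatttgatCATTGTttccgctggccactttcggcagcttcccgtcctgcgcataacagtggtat

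The members were divided between cell types. Igfbp6 was nearly restricted to Sca1+ MSCs, Igfbp2 and Igfbp3 led in endothelial cells and Igfbp7 in pericytes, while Igfbp4 and Pappa were highest in Lepr+ MSCs and OPs, Igfbp5 in these and Sca1+ MSCs, and Igf1 in all of these and pericytes, and Igf1r was spread over almost every type. Levels are given as mean CPM ± SD over 8 mice, or over 5 for B lineage cells. They are a description with no test, since cell types were defined on the same cells, although the members were left out of the clustering. The haematopoietic types are what the depletion left behind. The heat map of levels by type shows the pattern.

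**Figure D1:**
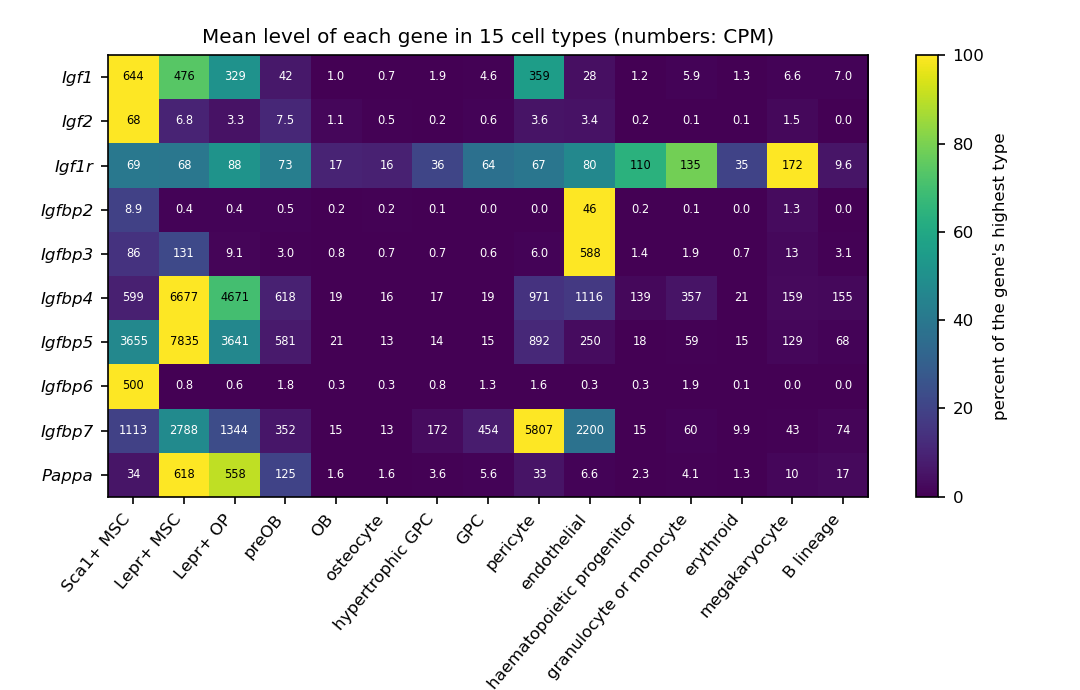
Mean level of each of the 10 members in the 15 named cell types. Rows are genes, columns are types, numbers in the cells are mean CPM over the mice with enough cells, and colour gives the percent of the gene's highest type. Igfbp6 has a single bright column, Sca1+ MSC at 499.5 CPM, whereas Igf1r reaches 172 CPM in megakaryocytes and 88.4 CPM in Lepr+ OPs.

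Igf1, the ligand that mediates much of growth hormone's action, was at 644 ± 391 CPM in Sca1+ MSCs, 476 ± 159 CPM in Lepr+ MSCs, 359 ± 220.2 CPM in pericytes and 329 ± 92 CPM in Lepr+ OPs. Neighbours in this order were not separated, as Sca1+ MSCs exceeded Lepr+ MSCs in 5 of 8 mice and pericytes exceeded OPs in 5 of 8. The next step was large. PreOBs were at 41.6 ± 20.5 CPM, below OPs in 8 of 8 mice, and OBs and osteocytes were at 0.973 and 0.721 CPM, no higher than erythroid cells at 1.3 CPM. Endothelial cells were at 27.6 ± 11.3 CPM. Lepr+ MSCs were 6.67% of cells and held 48.1 ± 11.5% of all Igf1 UMIs, with OPs holding a further 21.1 ± 5.51%. The genes whose levels over the 15 types were most like those of Igf1, among 6740 genes that reached 50 CPM in at least 1 type, were Fbn1 (Pearson r = 0.99), C1s1 (0.98) and Lpl (0.97), the last a gene of the Lepr+ MSC marker list. The points of such a correlation share libraries and integration, and it carries no p.

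Igf2, the other ligand, which is most active before birth, was low outside Sca1+ MSCs. It was at 68 ± 83.9 CPM in Sca1+ MSCs, an SD larger than the mean, and exceeded preOBs at 7.49 CPM in 6 of 8 mice. Lepr+ MSCs were at 6.79 CPM and OBs at 1.13 CPM. Because OBs were the most numerous cells, they held 31.9 ± 15.8% of the Igf2 UMIs despite that level. The pattern was most like those of Prrx2 (r = 0.92), Ptn and P4ha3 over the 15 types.

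Igf1r, the receptor, had its highest level in megakaryocytes at 172 ± 102 CPM, followed by granulocytes or monocytes at 135 ± 39.2 CPM and haematopoietic progenitors at 109.7 ± 15.1 CPM. Each of these steps held in 6 of 8 mice, so the order among them was not separated. For granulocytes or monocytes 6 of 10 listed markers counted, and the leading genes were Prss34, Mcpt8 and Mpo. At a resolution of 1.5 this type held 685 cells led by Prss34, Mcpt8 and Ctsg and 454 led by Mpo, Prtn3 and Elane. Lepr+ OPs, endothelial cells, preOBs, Sca1+ MSCs, Lepr+ MSCs, pericytes and GPCs lay between 88.4 and 63.5 CPM. Hypertrophic GPCs were at 36.2 CPM, and OBs and osteocytes at 17.3 and 15.7 CPM. Igf1r was at 10 CPM or more in 14 of 15 types, and its highest mean was 17.9 times its lowest. The highest was that of megakaryocytes, whose cells had a median of 9.83% of their library's median UMIs. The lowest, 9.62 CPM, was that of B lineage cells, with enough cells in 5 mice. Of the genes most similar to Igf1r, Flot1 reached r = 0.91, below the leading value of every other member.

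Of the binding proteins of endothelial cells, Igfbp2 was at 46.2 ± 28.2 CPM there and 8.94 CPM in Sca1+ MSCs, the next type, which was lower in 8 of 8 mice. No Igfbp2 UMI was found in pericytes. Igfbp3, the main carrier of IGF in blood, was at 588 ± 268 CPM in endothelial cells, above Lepr+ MSCs at 131 ± 61.9 CPM in 8 of 8 mice. Endothelial cells were 5.75% of cells and held 77.7 ± 14.8% of the Igfbp2 UMIs and 67.2 ± 12.1% of the Igfbp3 UMIs. Igfbp2 was most like Rassf9 (r = 0.97), Stmn2 and Ly6c1, and Igfbp3 like Palmd (r = 0.94), Col4a3bp and Serpinb9.

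Igfbp4, a binding protein that PAPPA cuts, was at 6677 ± 1638 CPM in Lepr+ MSCs and 4671 ± 847 CPM in OPs, the former higher in 7 of 8 mice. Endothelial cells, pericytes, preOBs and Sca1+ MSCs followed at 1116, 971, 618 and 599 CPM. The erythroid level was 21.4 CPM. Igfbp5, a binding protein that also attaches to bone matrix, was at 7835 ± 1251 CPM in Lepr+ MSCs, 3655 ± 4003 CPM in Sca1+ MSCs and 3641 ± 882 CPM in OPs. The Sca1+ MSC value ranged from 891 to 12703 CPM between mice, and it exceeded the OP value in 2 of 8 mice only. Lepr+ MSCs held 51 ± 5.65% of the Igfbp4 UMIs and 63.2 ± 6.63% of the Igfbp5 UMIs. Pappa was at 618 ± 118 CPM in Lepr+ MSCs and 558 ± 95 CPM in OPs (6 of 8 mice), was at 125 ± 56.1 CPM in preOBs (below OPs in 8 of 8), and these MSCs and OPs held 53.1 ± 7.8% and 30.4 ± 5.39% of its UMIs. Igfbp4 was most like Cxcl12 (r = 0.94), Igfbp5 like Col8a1 (r = 0.98) and Pappa like Marc1 (r = 0.97).

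Igfbp6, a binding protein that prefers IGF2, was at 499.5 ± 429 CPM in Sca1+ MSCs, and no other type exceeded 1.86 CPM on average. Sca1+ MSCs, 0.918% of cells, held 71.2 ± 27.2% of the Igfbp6 UMIs, and Mfap4 had the most similar levels (r = 0.98). Igfbp7, which binds IGFs weakly and lies in vessel walls, was at 5807 ± 673 CPM in pericytes, 2788 ± 426 CPM in Lepr+ MSCs (lower in 8 of 8 mice), 2200.1 ± 697 CPM in endothelial cells and 1344 ± 293 CPM in OPs. OBs were at 15.4 CPM and erythroid cells at 9.91 CPM. Itga1 was most like it (r = 0.96). The log2 ratio of the leading to the next type, on CPM + 1 within each mouse, was 7.31 ± 1.83 (mean ± SD, 8 mice) for Igfbp6, 3.21 ± 1.66 for Igfbp2, 2.15 ± 0.97 for Igfbp3 and 1.06 ± 0.22 for Igfbp7. For Igf1, Igf2, Igf1r and Pappa it was 0.09 ± 1.29, 1.91 ± 3.30, 0.11 ± 1.09 and 0.14 ± 0.23, smaller than its SD, so no single type led. For Igfbp4 and Igfbp5, highest in Lepr+ MSCs, it was 0.50 ± 0.36 and 1.68 ± 1.38.

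The first comparison asked how the members changed between 7 and 13 weeks. Genotypes were averaged, UMIs were summed per mouse and type, and each type was fitted over all its genes. Mice of an age with the same replicate number, taken as sisters below, deviated together (correlations of 0.112 to 0.402). They entered this fit as independent mice, so the p-values for age do not allow for sisterhood. Leaving out single mice does not address this. Members passed the filter on low counts in 91 combinations of gene and type (for example 10 of 10 members in OBs, 9 in endothelial cells and 6 in pericytes), and 7 of the 91 were called at an adjusted p of 0.05, 2 higher and 5 lower at 13 weeks. That is 7.69%, against 1.73% of all gene and type combinations tested and 2.27% of those in skeletal and vascular types. The share of members with an unadjusted p under 0.05 was 29.7%, against 11.6% of all combinations. The median log2 change of the members was 0.07. With the replicate number, shared by mice of both ages, as a block 14 were called (15.4%, against 3.54% of all combinations called with age in that fit), though no source used here pairs mice of different ages. DESeq2 called 11 of the 91 (against 1.74% of all combinations). The 7 called changes lay in endothelial cells (4), preOBs (2) and pericytes (1).

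Igf1 fell in pericytes. Its levels there were 624 and 513 CPM in the controls and 671 and 376 CPM in the mutants of 7 weeks, and 122 and 189.5 CPM in the controls and 139 and 239 CPM in the mutants of 13 weeks. Every mouse of 13 weeks lay below every mouse of 7 weeks (log2 change -1.59, SE 0.24, adjusted p = 0.00574, edgeR quasi-likelihood test, Benjamini-Hochberg adjustment), and the call held with each mouse left out in turn. In all genes of pericytes 1.11% were called. The summed level of the Lepr+ MSC marker list in pericytes was also lower at 13 weeks (1090.2 to 1545 CPM against 1648 to 2319.8), where Lepr+ MSCs themselves had 12715 to 19981 CPM, and all 12 of its genes were detected. The lists of OPs (397 to 661 against 791 to 1232), preOBs (302 to 493 against 565 to 956) and endothelial cells (206 to 316 against 317 to 432) were lower too, and that of GPCs was higher (683 to 1856 against 441 to 618). The part of these lists in the result was not tested.

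The make-up of the pericytes differed between mice as well. At a finer resolution of 1.5, an alternative chosen after seeing the data, they held mainly cluster 29 (671 cells, led by Rgs5) and cluster 38 (330 cells, led by Acta2, Tagln, Myl9 and Myh11). Cluster 38 made up 9.09 and 28.6% of the pericytes of the controls and 19.6 and 21.5% of those of the mutants of 7 weeks. At 13 weeks it made up 64.5 and 42.5% in the controls and 37.5 and 8.45% in the mutants. Igf1 was at 0 to 49.0 CPM in cluster 38, in the 5 mice with at least 10 of its cells. In cluster 29 it was at 675 and 670.4 CPM in the controls and 789 and 462 CPM in the mutants of 7 weeks, and at 386 and 339 CPM in the controls and 231 and 263 CPM in the mutants of 13 weeks. Within cluster 29 every mouse of 13 weeks thus also lay below every mouse of 7 weeks, and Igf1 was called there with a smaller change than in all pericytes (log2 change -1.05, SE 0.20, adjusted p = 0.0315, edgeR, background 0.308%).

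In Lepr+ MSCs, Igf1 was at 562 and 773 CPM in the controls and 486 and 542 CPM in the mutants of 7 weeks, and 401 and 459 CPM in the controls and 337 and 248 CPM in the mutants of 13 weeks. The ages did not overlap there, yet the change missed the threshold (log2 change -0.71, SE 0.16, adjusted p = 0.109, edgeR). Igf1 in preOBs (log2 change -0.93, SE 0.30, adjusted p = 0.164, edgeR) and endothelial cells (log2 change -0.76, SE 0.22, adjusted p = 0.0805, edgeR) was not called either, and its ages overlapped there. In Sca1+ MSCs Igf1 ranged from 106 to 1192 CPM between mice and was not called (log2 change -0.33, SE 0.59, adjusted p = 0.998, edgeR), nor was it in OPs (log2 change -0.26, SE 0.17, adjusted p = 0.725, edgeR). Igf1r changed by -0.55 to 0.78 on the log2 scale over the 14 types where it was tested, with none called, though its ages did not overlap in preOBs.

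**Figure D2:**
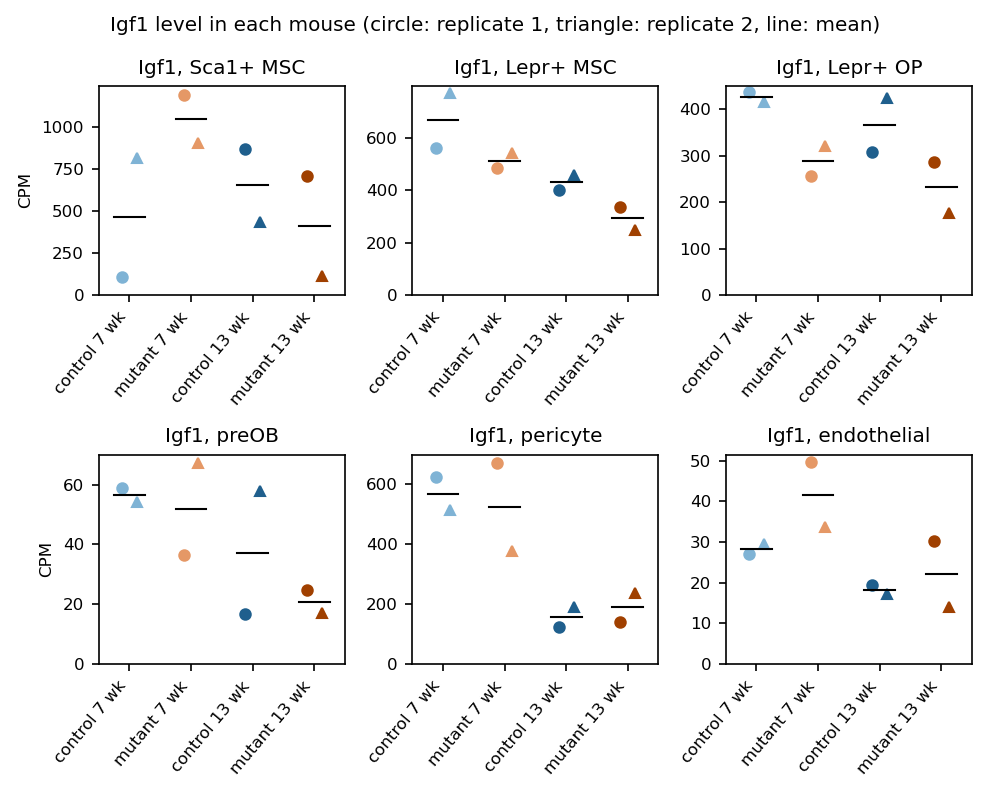
Igf1 in 6 cell types, with CPM on the vertical axis (from 0, a separate scale per panel) and the 4 groups on the horizontal axis. Circles are replicate 1 mice, triangles replicate 2 mice and lines group means of 2 mice. In pericytes the 13-week mice sit at 122 to 239 CPM, all below the 7-week mice. In Lepr+ OPs each mutant lies below the control of its age and replicate number.

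Igf2 rose and Pappa fell in preOBs. Igf2 counts were small, 24 and 7 UMIs in the controls and 3 and 0 in the mutants of 7 weeks, and 37 and 26 UMIs in the controls and 15 and 16 in the mutants of 13 weeks. Its levels were 8.74 and 3.57 CPM in the controls and 1.16 and 0 CPM in the mutants of 7 weeks, and 12.8 and 17.3 CPM in the controls and 6.74 and 9.68 CPM in the mutants of 13 weeks. The ages overlapped through 1 control of 7 weeks that lay above 1 mutant of 13 weeks (log2 change 2.37, SE 0.44, adjusted p = 0.0109, edgeR), and the call held with each mouse left out. Pappa was at 209 and 196 CPM in the controls and 108 and 142 CPM in the mutants of 7 weeks, and 68 and 133 CPM in the controls and 59.3 and 84.1 CPM in the mutants of 13 weeks, again with overlap (log2 change -0.86, SE 0.20, adjusted p = 0.0386, edgeR). The Pappa call was lost in 6 of the 8 fits that left out 1 mouse, holding only without the replicate 2 control or the replicate 2 mutant of 13 weeks, with an adjusted p of 0.184 at most, without the replicate 1 mutant of 13 weeks. In preOBs 2.07% of all genes were called. The Sca1+ MSC marker list was lower in preOBs at 13 weeks (438 to 788 CPM against 1768 to 2457), and it holds Col3a1, also a leading gene of the preOB cluster. The endothelial list was lower too (12.6 to 20.7 against 23 to 40.2), and the osteocyte list was higher (579 to 942 against 157 to 357). All genes of the 3 lists were detected, and their part in either change was not tested. Igf2 in OBs changed in the same direction without a call (log2 change 2.10, SE 0.47, adjusted p = 0.0565, edgeR).

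In endothelial cells 4 of the 9 members tested were called, where 3.52% of all genes were. Igfbp2 was at 64.1 and 87.8 CPM in the controls and 62.6 and 70 CPM in the mutants of 7 weeks, and 16.5 and 22.2 CPM in the controls and 31.3 and 14.7 CPM in the mutants of 13 weeks. The lowest mouse of 7 weeks still exceeded the highest of 13 weeks (log2 change -1.75, SE 0.22, adjusted p = 0.00127, edgeR). Igfbp5 was at 269 and 297 CPM in the controls and 489 and 268 CPM in the mutants of 7 weeks, and 268 and 227 CPM in the controls and 96 and 88.2 CPM in the mutants of 13 weeks (log2 change -1.08, SE 0.18, adjusted p = 0.00498, edgeR). Its lowest values were those of the mutants of 13 weeks, and the ages touched at the rounded value of a control and a mutant but did not overlap. Both calls held with each mouse left out.

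Igfbp3 moved the other way. Its endothelial levels were 606 and 329 CPM in the controls and 267 and 362 CPM in the mutants of 7 weeks, and 1093 and 649.6 CPM in the controls and 689 and 705 CPM in the mutants of 13 weeks (log2 change 1.05, SE 0.21, adjusted p = 0.0133, edgeR). The lowest mouse of 13 weeks lay above the highest of 7 weeks, but the call was lost without the replicate 1 control of 13 weeks (adjusted p = 0.0695) and without the replicate 1 mutant of 13 weeks (log2 change 1.08), both of the deeper libraries. Igfbp4 was at 1122 and 1348 CPM in the controls and 1603 and 1310.0 CPM in the mutants of 7 weeks, and 983 and 928 CPM in the controls and 845 and 787 CPM in the mutants of 13 weeks (log2 change -0.57, SE 0.14, adjusted p = 0.0431, edgeR). Its ages did not overlap either, and the call was lost in 6 of 8 fits without 1 mouse, holding only without the replicate 1 control or the replicate 2 mutant of 7 weeks, with a highest adjusted p of 0.200 without the replicate 1 mutant of 13 weeks. Igfbp7 was at 1855 and 1954 CPM in the controls and 876 and 2000.2 CPM in the mutants of 7 weeks, and 2441 and 3053 CPM in the controls and 2471 and 2951 CPM in the mutants of 13 weeks, without overlap and without a call (log2 change 0.75, SE 0.23, adjusted p = 0.0943, edgeR). Over all tests of members, the ages did not overlap in 8 of 91, close to the 7.35% of all combinations. Of the 8, 5 were Igfbp2, Igfbp3, Igfbp4, Igfbp5 and Igfbp7 in endothelial cells. The 7.35% pools all types, and the share of all endothelial genes without overlap is not given here. With age, 1785 of 10809 endothelial genes had an unadjusted p under 0.05 by edgeR.

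**Figure D3:**
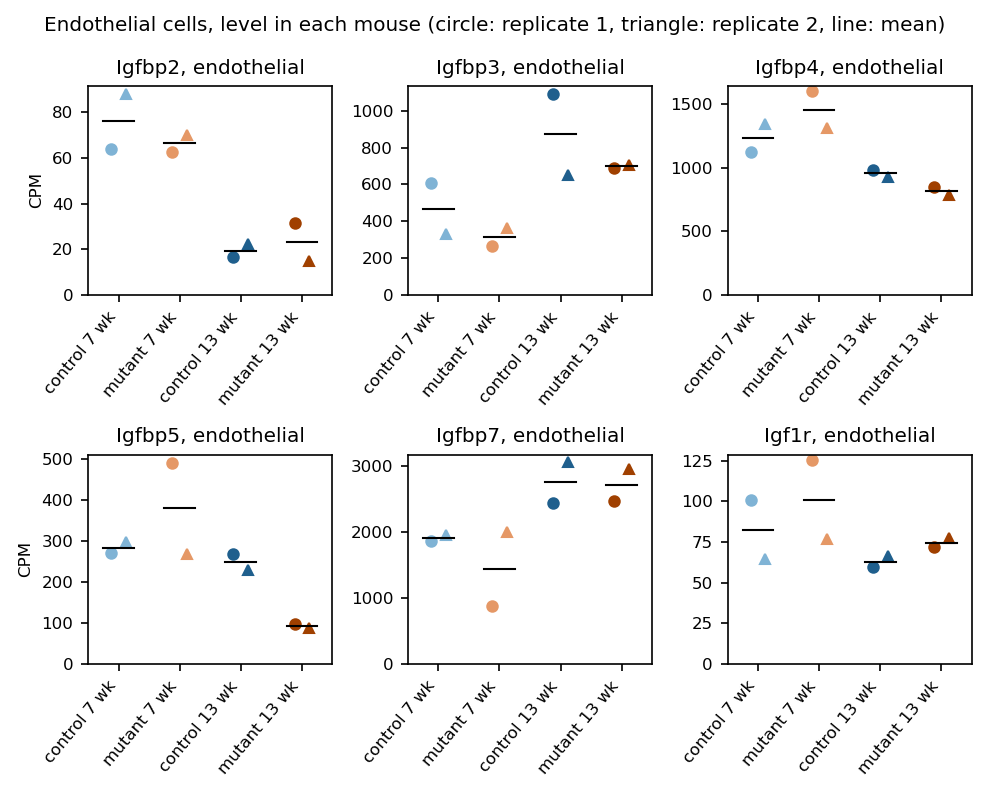
Igfbp2, Igfbp3, Igfbp4, Igfbp5, Igfbp7 and Igf1r in endothelial cells, with CPM on the vertical axis (from 0, a separate scale per panel) and the 4 groups on the horizontal axis. Circles are replicate 1 mice, triangles replicate 2 mice and lines group means of 2 mice. Igfbp2 lies between 62.6 and 87.8 CPM at 7 weeks and between 14.7 and 31.3 CPM at 13 weeks, while Igfbp3 and Igfbp7 are higher at 13 weeks.

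Endothelial cells were made of 3 clusters whose shares differed between the ages. Cluster 15 was led by Gpihbp1, Flt1, Plvap and Emcn, cluster 19 by Lrg1, Ubd and Mrc1, and cluster 22 by Ly6c1, Fbln2, Ly6a and Gja4. Cluster 22 held 12.6 to 23.1% of a mouse's endothelial cells at 7 weeks and 29.8 to 46.9% at 13 weeks, and cluster 19 held 25.7 to 49.9% and 10.9 to 15.8%. Cluster 15 overlapped, with 37.5 to 52.0% and 41.8 to 54.5%. The members separated these clusters. Igfbp2 was at 119.8 ± 27.4 CPM in cluster 19 and 58.9 ± 23.2 CPM in cluster 15 at 7 weeks (4 mice), but at 1.64 ± 2.51 CPM in cluster 22. Igfbp3 had the opposite order, 1264 ± 371 CPM in cluster 22, 371 ± 93.3 CPM in cluster 15 and 43 ± 19 CPM in cluster 19, and Igfbp7 was likewise highest in cluster 22 at 3153 ± 834 CPM against 919 ± 283 CPM in cluster 19. Cluster 19, the highest in Igfbp2, thus made up less of the endothelial cells at 13 weeks, and cluster 22, the highest in Igfbp3 and Igfbp7, made up more. Igfbp4 was at 1852 ± 207 CPM in cluster 19 and 566 ± 120.2 CPM in cluster 22, in the same order as Igfbp2.

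Within clusters, Igfbp2 went from 58.9 ± 23.2 to 25.1 ± 7.92 CPM in cluster 15 and from 119.8 ± 27.4 to 64.3 ± 41.2 CPM in cluster 19. Igfbp3 went from 1264 ± 371 to 1414 ± 177 CPM in cluster 22 and from 371 ± 93.3 to 533 ± 217 CPM in cluster 15. Igfbp5 was at 349 ± 68.5 and 140.0 ± 121 CPM in cluster 15, but at 369 ± 137 and 354 ± 230.1 CPM in cluster 19. With each cluster fitted alone, 0 of the 20 member tests for age were called by edgeR, against 0.0596% of all genes, and 6 had an unadjusted p under 0.05 (against 5.91% of all genes), 5 of them in cluster 15. The smallest adjusted p was 0.0736, of Igfbp5 in cluster 15 (log2 change -1.50), and that of Igfbp2 in cluster 15 was 0.176 (log2 change -1.26). The macrophage list was lower at 13 weeks in endothelial cells (141 to 206 CPM against 306 to 623, 6 of 6 genes detected). It holds Mrc1, a leading gene of cluster 19. The Sca1+ MSC list, which holds Ly6a, a leading gene of cluster 22, was higher (1292 to 2312 against 667 to 894, 12 of 12). The OP list was higher too (607 to 1101 against 365 to 450.2) and the list of proliferating cells lower (80.9 to 150.2 against 151 to 230.4). The part of these lists and of the shifted clusters in the changes of the whole type was not tested.

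**Figure D4:**
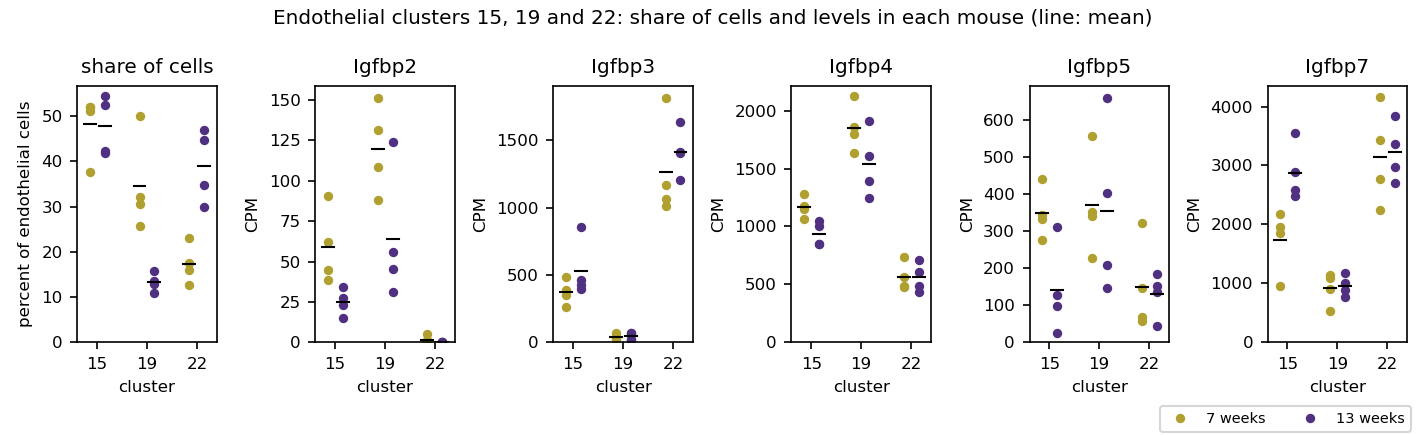
Share of each endothelial cluster (first panel, percent of a mouse's endothelial cells) and CPM of 5 binding proteins within each cluster. The horizontal axis gives the cluster, each point is 1 mouse, colour gives the age and lines are means of 4 mice. Cluster 22 holds 29.8 to 46.9% of cells at 13 weeks against 12.6 to 23.1% at 7 weeks, and Igfbp3 and Igfbp7 are highest in it whereas Igfbp2 is near 0.

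The second comparison asked how the members differed between mutant and control mice, with the ages averaged. Controls carried no Cre, so loss of SOXC and the OsxCre transgene itself cannot be told apart in these libraries. By edgeR, 0 of the 91 member tests were called, where 0.404% of all combinations and 0.531% of those in skeletal and vascular types were. An unadjusted p under 0.05 was found in 19 (20.9%, against 6.02% of all combinations), and DESeq2 called 2 (background 0.534%). The study describes pairs of sisters at each age, and mice of an age with the same replicate number were taken as the pairs. No label says which mice were sisters. Replicate 1 libraries were the deeper in every group, so effects of sisterhood and of depth cannot be told apart. Below, a mouse's sister is the mouse of its age and number. With these 4 pairs as a block in the fit 7 of the 91 were called (7.69%, against 2.08% of all combinations), 2 higher and 5 lower in mutants. Each of the 7 had its direction in 4 of 4 pairs, which adds no separate support, since the same pairs gave the calls. How many of all genes had 1 direction in 4 of 4 pairs was not counted, here or below. They concern Igf1 in Lepr+ OPs and Igf2, Igfbp4, Igfbp7 and Pappa in preOBs or OBs. The 2.08% pools all types and is not the share in OPs, preOBs or OBs alone. Without a block, edgeR called 78 of 10525 genes in OPs, 77 of 10581 in preOBs and 180 of 14407 in OBs with genotype. In endothelial cells it called 0 of 10809. The blocked values below are edgeR quasi-likelihood tests with Benjamini-Hochberg adjustment, and the unblocked adjusted p follows each. The blocked fit was not repeated with mice left out.

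With the block, Igf1 was lower in mutant Lepr+ OPs. Its levels were 438 and 416 CPM in the controls and 258 and 321 CPM in the mutants of 7 weeks, and 308 and 425 CPM in the controls and 287 and 176 CPM in the mutants of 13 weeks. Both mutants of each age lay below both controls of that age, while the genotypes overlapped over both ages (log2 change -0.62, SE 0.12, adjusted p = 0.00262 with the replicate block, edgeR, and 0.142 without it). In Lepr+ MSCs Igf1 was also lower in 4 of 4 pairs, without a call. The OB marker list was higher in mutant OPs (3264 to 5802 CPM against 1906 to 3080.0 in controls, 14 of 14 genes detected), and the list of proliferating cells was lower (36.7 to 59.7 against 63.1 to 90, 10 of 10). Their part in the Igf1 change was not tested.

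PreOBs held 4 of the 7 changes. The share of all preOB genes called with the block is not given here, and the 77 of 10581 called without it is not a like measure. Igfbp4 was at 506 and 841 CPM in the controls and 327 and 684 CPM in the mutants of 7 weeks, and 413 and 1147 CPM in the controls and 254 and 769.7 CPM in the mutants of 13 weeks, with replicate 2 mice above replicate 1 mice in both genotypes (log2 change -0.56, SE 0.12, adjusted p = 0.0116 with the block, edgeR, and 0.756 without it). Pappa, with the preOB values given above, was lower in each mutant than in its sister (log2 change -0.60, SE 0.12, adjusted p = 0.00653 with the block, edgeR, and 0.302 without). Igf2 in preOBs, also given above, was lower too (log2 change -1.41, SE 0.37, adjusted p = 0.0441 with the block, edgeR, and 0.0658 without), on 0 to 37 UMIs per mouse. Igfbp7 was at 172 and 362 CPM in the controls and 272 and 500.2 CPM in the mutants of 7 weeks, and 227 and 362 CPM in the controls and 243 and 681 CPM in the mutants of 13 weeks, higher in mutants (log2 change 0.52, SE 0.14, adjusted p = 0.0441 with the block, edgeR, and 0.663 without). The OB marker list was at 6028 to 27112 CPM in mutant preOBs and 3663 to 8715 CPM in control ones, all 14 genes detected, and its part in these changes was not tested.

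In OBs, Igf2 and Igfbp7 moved in the same directions as in preOBs. Igf2 was at 0.571 and 0.849 CPM in the controls and 0.0442 and 0.417 CPM in the mutants of 7 weeks, and 3.37 and 1.78 CPM in the controls and 0.606 and 1.43 CPM in the mutants of 13 weeks, from 3 to 178 UMIs per mouse (log2 change -1.48, SE 0.39, adjusted p = 0.0405 with the block, edgeR, and 0.205 without, with DESeq2 calling it at 0.0305). Igfbp7 was at 9.24 and 14.9 CPM in the controls and 10.2 and 25.2 CPM in the mutants of 7 weeks, and 15.8 and 10.3 CPM in the controls and 19.1 and 18.5 CPM in the mutants of 13 weeks (log2 change 0.59, SE 0.11, adjusted p = 0.00753 with the block, edgeR, and 0.38 without). These are low levels, since Igfbp7 stood at 9.91 CPM in erythroid cells. Igfbp7 was higher in 4 of 4 pairs in OPs as well, without a call. In mutant OBs the pericyte list was lower (9 to 11.2 CPM against 11.5 to 22.3), as was the B lineage list (1.25 to 1.84 against 1.9 to 5.39), and that of tendon was higher (17.2 to 22.5 against 12.3 to 15.4). Their part was not tested.

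A wide shift was seen for Igfbp5 in Sca1+ MSCs, which was not called. Its levels were 1949 and 5367 CPM in the controls and 1463 and 891 CPM in the mutants of 7 weeks, and 12703 and 4345 CPM in the controls and 1443 and 1080.2 CPM in the mutants of 13 weeks. The highest mutant lay below the lowest control, with the replicate 1 control of 13 weeks far above the rest (log2 change -2.15, SE 0.40, adjusted p = 0.0893, edgeR). The call appeared without the replicate 1 control of 7 weeks (adjusted p = 0.0467) or without the replicate 2 control of 13 weeks (adjusted p = 0.0123), and DESeq2 gave an adjusted p of 2.9e-05. There were 23 to 158 of these cells per mouse. A list of 4 tendon genes was higher in mutant Sca1+ MSCs (58.1 to 492 CPM against 22.1 to 54.6), the Lepr+ MSC list ran from 457 to 3105 CPM in controls and from 547 to 1301 CPM in mutants, all genes of both lists were detected, and their part was not tested. In all, genotypes did not overlap in 3 of the 91 tests (Igfbp5 and Igf1r in Sca1+ MSCs, Igfbp3 in OBs), close to the 3.54% of all combinations.

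The other members of Sca1+ MSCs, the type with the fewest cells of the mesenchymal line, also varied widely between mice. Igfbp6 was at 94.7 and 366 CPM in the controls and 186 and 592 CPM in the mutants of 7 weeks, and 110.3 and 589.5 CPM in the controls and 1402 and 657 CPM in the mutants of 13 weeks. Each mutant was above its sister, without a call (genotype log2 change 1.16, SE 0.58, adjusted p = 0.753, edgeR). Igf2 was at 16.7 and 246 CPM in the controls and 7.74 and 79.9 CPM in the mutants of 7 weeks, and 116 and 75.9 CPM in the controls and 1.92 and 0 CPM in the mutants of 13 weeks. Each mutant was below its sister here, again without a call (genotype log2 change -3.49, SE 0.81, adjusted p = 0.202, edgeR). Igf1r was at 72.4 and 65.5 CPM in the controls and 50.3 and 41.4 CPM in the mutants of 7 weeks, and 171 and 61.3 CPM in the controls and 37.7 and 52.5 CPM in the mutants of 13 weeks. The genotypes did not overlap, with the mutants the lower, and the change was not called (log2 change -0.95, SE 0.33, adjusted p = 0.449, edgeR). In endothelial cells Igf1r was higher in each mutant than in its sister (log2 change 0.28, SE 0.19, adjusted p = 1, edgeR), without a call.

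**Figure D5:**
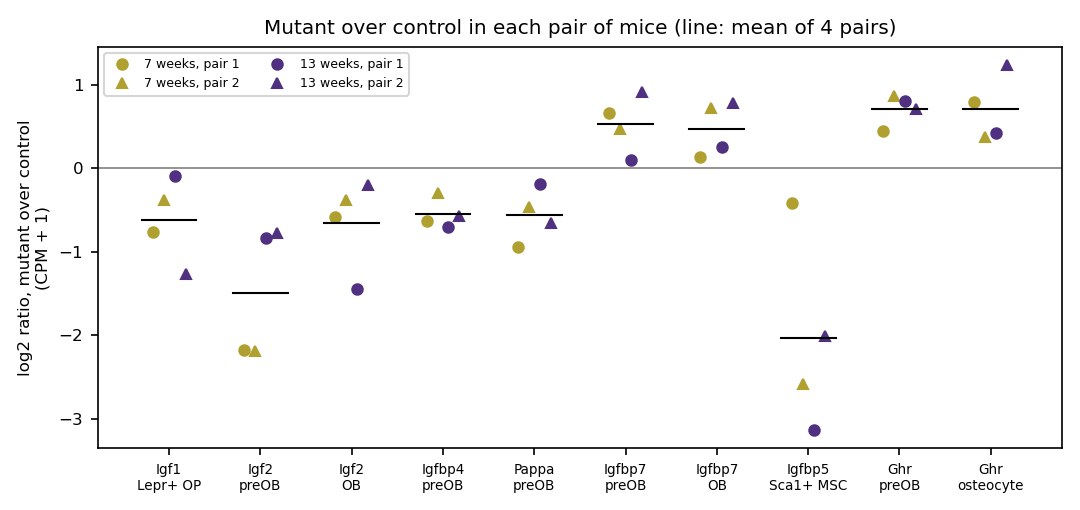
Log2 ratio of mutant over control CPM + 1 (vertical axis) in each of 4 pairs of sisters for 8 combinations of member and type and for Ghr in 2 types (horizontal axis). Colour gives the age, the shape gives the pair number and lines are means of 4 pairs. All 4 points lie below 0 for Igf1 in Lepr+ OPs, Igf2, Igfbp4 and Pappa in preOBs, Igf2 in OBs and Igfbp5 in Sca1+ MSCs, and above 0 for Igfbp7 and Ghr.

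At 7 weeks alone, 0 of 94 member tests were called by edgeR (background 0.048%), 11 had an unadjusted p under 0.05 (11.7%, background 3.62%), DESeq2 called 0 (background 0.116%), and 2 were called with the replicate number, shared by both ages, as a block (background 0.254%). These were Igf2 in Lepr+ MSCs, lower in mutants on 1 and 2 UMIs against 12 and 29 (log2 change -3.73, SE 0.63, adjusted p = 0.0474, edgeR), and Igfbp7 in B lineage cells, which had enough cells in 5 mice (log2 change 2.52, SE 0.68, adjusted p = 0.0341, edgeR). The mutants of 7 weeks had 13 and 61 B lineage cells. In those cells the Lepr+ MSC list was at 49.7 to 59.4 CPM in the controls and reached 1476 CPM in a mutant of 7 weeks. For the OB list it was 1421 to 2125 CPM and up to 10479.5 CPM, and for the endothelial list 121 to 139 CPM and up to 1827 CPM. Their part in the value of Igfbp7 was not tested. At 13 weeks 0 of 91 were called with or without that block (backgrounds 0.307 and 0.0999%), 21 had an unadjusted p under 0.05 (23.1%, background 4.53%), and DESeq2 called 3 (background 0.205%). All 3 were Igfbp5, with lower values in the mutants, in Sca1+ MSCs, endothelial cells and pericytes (adjusted p = 0.000969, 0.00183 and 0.00298, DESeq2), and edgeR without a block called none of them. In pericytes it was at 2112 and 1363 CPM in controls and 723 and 258 CPM in mutants (log2 change -1.78, SE 0.40, adjusted p = 0.081, edgeR), where cluster 38 had made up 64.5 and 42.5% of the pericytes of those controls and 37.5 and 8.45% of those of the mutants. In cluster 29 alone Igfbp5 was at 1819 and 817 CPM in controls and 299 and 252 CPM in mutants of 13 weeks, without overlap, and was called lower in mutants (log2 change -2.12, SE 0.35, adjusted p = 0.0169, edgeR, background 0.212%). In cluster 38, which had enough cells in 5 mice, it was at 2247 and 1983 CPM in controls and 1360 CPM in 1 mutant (log2 change -0.74, adjusted p = 0.726, edgeR). In endothelial cells, with the values given above, the log2 change was -1.42 (SE 0.26, adjusted p = 0.278, edgeR), and in Sca1+ MSCs it was -2.62 (adjusted p = 0.171, edgeR). The OB list was higher in mutant pericytes (3919 to 36560.3 CPM against 2212 to 3024, 14 of 14 genes detected), and in mutant endothelial cells (2598 to 3365 CPM against 1385 to 2030.5), and its part was not tested.

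The third comparison asked whether the effect of genotype differed between the ages. Of 91 interaction tests of members 0 were called by edgeR with or without the replicate number as a block (backgrounds 0.00224 and 0%), 10 had an unadjusted p under 0.05 (11%, background 1.99%), and DESeq2 called 1 (background 0.00522%), Igfbp5 in endothelial cells (adjusted p = 0.0172). The smallest adjusted p by edgeR was 0.967, of Igfbp5 in pericytes, without a block.

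A fit with the sister pairs as a block and a genotype effect at each age, chosen after seeing the data, called more. It joins no mice of different ages, and leaves 2 residual degrees of freedom with 8 mice. At 7 weeks it called 4 of 94 (4.26%, background 0.531%), at 13 weeks 2 of 91 (2.2%, background 0.834%), and 1 of 91 interaction tests (1.1%, background 0.0157%). The calls at 7 weeks were Igf2 in Lepr+ MSCs (log2 change -3.81, SE 0.58, adjusted p = 0.027), Igf2 in preOBs (adjusted p = 0.0247), Pappa in preOBs (log2 change -0.71, SE 0.16, adjusted p = 0.0349) and Igfbp7 in B lineage cells (adjusted p = 0.0341, all edgeR with this block). For the 5 mice with enough B lineage cells this fit equals that with the replicate number. The Igfbp7 call is thus the same result as above, on fewer residual degrees of freedom than with 8 mice. Those at 13 weeks were Igf2 in Sca1+ MSCs, with 21 and 26 UMIs in the controls and 3 and 0 in the mutants (adjusted p = 0.00968, edgeR with this block), and Igfbp5 in pericytes (log2 change -1.90, SE 0.21, adjusted p = 0.00019, edgeR with this block). In pericytes of 7 weeks Igfbp5 was at 481 and 775 CPM in the controls and 584 and 838 CPM in the mutants. The interaction called was that of Igfbp5 in pericytes (log2 change -2.08, SE 0.29, adjusted p = 0.00862, edgeR with this block). The share of cluster 38 in pericytes differed between these groups too, as given above. In cluster 29 alone Igfbp5 was at 458 and 435 CPM in the controls and 455 and 588 CPM in the mutants of 7 weeks. With this block the genotype effect at 13 weeks was called there by edgeR (log2 change -2.07, SE 0.25, adjusted p = 0.00626, background 0.443%), and the interaction was not (log2 change -2.31, SE 0.34, adjusted p = 0.0679, background 0%). This fit was not repeated with mice left out.

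Of 31 other genes of the pathway, 27 were tested in at least 1 type, in 291 combinations. With genotype 2 of the 291 were called (0.687%, background 0.404%), both of them Ghr, the growth hormone receptor, whose signal induces Igf1. In osteocytes Ghr was at 29.3 and 39.9 CPM in the controls and 51.6 and 51.8 CPM in the mutants of 7 weeks, and 54.3 and 37.2 CPM in the controls and 73.4 and 88.7 CPM in the mutants of 13 weeks (log2 change 0.78, SE 0.15, adjusted p = 0.0132, edgeR). Each mutant was above its sister, though 1 control of 13 weeks exceeded both mutants of 7 weeks. In preOBs Ghr was at 52.5 and 39.3 CPM in the controls and 71.9 and 72.2 CPM in the mutants of 7 weeks, and 62.8 and 61.2 CPM in the controls and 110.5 and 100.4 CPM in the mutants of 13 weeks (log2 change 0.69, SE 0.15, adjusted p = 0.0493, edgeR), without overlap, and the call held in 1 of the 8 fits that left out 1 mouse, that without the replicate 1 control of 7 weeks, with an adjusted p of 0.185 at most, without the replicate 1 mutant of 7 weeks. The osteocyte call was lost without the replicate 2 control or the replicate 2 mutant of 13 weeks (adjusted p up to 0.0558). Ghr was higher in 4 of 4 pairs also in Lepr+ MSCs, OPs, OBs and hypertrophic GPCs, and lower in 4 of 4 pairs in Sca1+ MSCs (log2 change -0.64, SE 0.32, adjusted p = 0.759, edgeR). With the replicate block 9 pathway tests were called by edgeR (3.09%, against 2.08% of all combinations), 5 of them Ghr, with adjusted p of 0.0325 in Lepr+ MSCs, 0.00822 in OPs, 0.00123 in preOBs, 0.00292 in OBs and 0.00017 in osteocytes. The others were Jak2, the kinase of that receptor, lower in OBs (log2 change -0.33, SE 0.07, adjusted p = 0.0174) and osteocytes (log2 change -0.57, SE 0.12, adjusted p = 0.00301), Grb10, an adaptor that restrains insulin and IGF receptors, lower in OBs (log2 change -0.33, SE 0.05, adjusted p = 0.00452), and Kazald1, which has an IGF-binding domain, higher in pericytes (log2 change 1.44, SE 0.29, adjusted p = 0.0427, all edgeR with the block). The OB list, higher in mutant pericytes as given above, moved with Kazald1, the share of cluster 38 was lower in mutant pericytes of 13 weeks, and the part of neither was tested. As given above, the OB list was also higher in mutant OPs and, with overlap, ran higher in mutant preOBs. Its part in the Ghr changes there was not tested.

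At 13 weeks alone 1 pathway test, of Irs2 in pericytes, was called without a block (0.344%, background 0.0999%). With the replicate number as a block 3 were called (1.03%, background 0.307%). With the sister pairs as a block 6 were called (2.06%, background 0.834%). The genes of these blocked calls are not listed here. Irs2, an adaptor that carries the signal from the receptor, was at 347 and 224 CPM in control and 91.7 and 87.6 CPM in mutant pericytes (log2 change -1.66, SE 0.31, adjusted p = 0.0274, edgeR). The OB list was at 3919 to 36560.3 CPM in mutant and 2212 to 3024 CPM in control pericytes of both ages, cluster 38 had the larger shares in control pericytes of 13 weeks given above, and the part of neither was tested. The call was lost without the replicate 1 control of 13 weeks (adjusted p = 0.309) or without either mutant of 13 weeks (log2 changes -1.70 and -1.65). With age 11 of 291 were called (3.78%, background 1.73%), 3 higher and 8 lower at 13 weeks. Stc1, a glycoprotein that inhibits PAPPA, fell in OBs by 2.25 on the log2 scale and in preOBs by 4.41. Igf2bp2, which binds Igf2 mRNA, was lower in OBs (-1.39), osteocytes (-2.59) and preOBs (-1.42). Ghr rose in OBs (0.67), and Foxo3 (0.70) and Socs2 (0.67), an inhibitor of growth hormone signalling, rose in hypertrophic GPCs while Grb10 (-0.63) fell there. Of all genes tested in hypertrophic GPCs 9.62% were called with age, and their own marker list was lower at 13 weeks (13247 to 20711 CPM against 23032 to 33493). Kazald1 was lower in OPs (-0.76) and Jak2 in endothelial cells (-0.82). Leaving out each mouse in turn kept the calls of Stc1, Ghr and Igf2bp2 in OBs in 8 of 8 fits, and the other 8 in 2 to 7 of 8. The highest adjusted p among those 8 were 0.293 for Igf2bp2 in osteocytes and 0.117 in preOBs (both without the replicate 1 mutant of 7 weeks), 0.175 for Kazald1 and 0.0943, 0.0819 and 0.0535 for Foxo3, Socs2 and Grb10 (all without the replicate 2 mutant of 13 weeks), and 0.152 for Jak2 and 0.0761 for Stc1 in preOBs (both without the replicate 1 mutant of 13 weeks). Igfbp1, Igfbpl1, Pappa2 and Igf2bp1 passed the filter in no type.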

How the data were processed

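Bone and bone marrow cells of 8 female mice were measured by single-cell RNA sequencing (10x Genomics 3' kit), with a library for each mouse. The authors deposited raw counts of UMIs per gene and cell barcode, made with Cell Ranger 6.1.2 on mm10 per the submitters' processing notes, with no normalisation and no pooling. Each replicate is a separate mouse. Each group holds 2 mice, and the groups of a type were fitted together and share an estimate of the spread. With a block, the p-values rest on the spread that the block leaves. Without a block, sisters entered as independent mice.

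Everything after the counts was computed here. Cells with fewer than 200 or more than 6000 genes or with more than 10% mitochondrial UMIs were left out, as in the study's methods. Doublets were called from simulated doublets (25% of cells, 1% of cells as neighbours, as many as the loading of the library predicts), and this took out 9.67 to 11.3% of cells per library. Libraries were integrated with Seurat 5.3.0 (2000 variable genes, 30 components) and clustered with leidenalg 0.10.2 (20 neighbours, resolution 1). Variable genes were chosen without the members, the other pathway genes and the 3 targeted Sox genes. A cluster was named from the marker list with the highest mean fold, with at least 3 markers at 2 times the median of the other clusters (CPM + 5) and in 10% of cells. The part of the rule that separates Lepr+ OPs from preOBs and the handling of clusters under 33.3% of their library's median UMIs were decided once the clusters could be inspected. The 9 kept out of the named types (10184 cells) held 12.6 to 23.0% of the cells of the controls of 7 weeks, 9.28 to 25.7% of the mutants of 7 weeks, 10.7 to 25.3% of the controls of 13 weeks and 12.3 to 20.4% of the mutants of 13 weeks. In the same order of groups they took 39.4 to 48.2%, 32.8 to 49.2%, 45.0 to 67.0% and 56.3 to 56.9% of the cells most like Lepr+ OPs, 15.6 to 23.5%, 15.1 to 15.9%, 13.1 to 24.6% and 18.8 to 21.1% of those most like endothelial cells, 9.12 to 14.8%, 5.76 to 16.3%, 6.72 to 17.5% and 8.43 to 15.5% of those most like OBs, and 0.267 to 6.06% of those most like Lepr+ MSCs. For hypertrophic GPCs the shares were 13.7 to 42.3%, 5.79 to 67.1%, 3.02 to 38.3% and 4.40 to 9.74%. The left-out cluster counted with Lepr+ OPs (2089 cells) was led by genes of both the Lepr+ MSC list (Adipoq, Hp and Esm1) and the OP list. The split of these losses between OPs and Lepr+ MSCs is thus uncertain. Haematopoietic clusters kept their name at few UMIs (1 of megakaryocytes, 2 of erythroid and 1 of B lineage cells were under the limit), and 1 cluster of 570 cells had no name.

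UMIs were summed per mouse and type (at least 10 cells) and tested with edgeR 4.0.16 (TMM, filterByExpr, quasi-likelihood test, a mean per group, Benjamini-Hochberg adjustment over all genes of the type at 0.05). CPM in the text are of the sums, and log2 changes are edgeR's. The quasi-likelihood test returns no standard error, so the SE beside edgeR values is the absolute log2 change divided by the square root of F. Each fit was tested on simulated data. The study tells that control and mutant mice were sisters at each age, but no label says which, and the replicate numbers were taken as the pairs. Same-numbered mice of an age deviated together (12 of 12 correlations over 0.1, from 0.112 to 0.402 in 6 types). Those of different ages also did, at 0.0945 to 0.238, so sisterhood and library depth cannot be told apart. Results with genotype are also given with the replicate block. This is the 4 sister pairs where ages are averaged and otherwise the replicate number over both ages or, where said, the sister pairs with an effect at each age. DESeq2 1.42.0, other filters, another resolution, no integration and each mouse left out were tried. Replicate libraries differed beyond sampling noise. The members, the pathway list and the marker lists were chosen with earlier results of these data known. Named were all members and the 3 genes most like each member. Pathway genes were named where called without a block in any comparison, or with the block for genotype with ages averaged. Counting covers transcript ends only, so isoforms were not told apart.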

Additional observations from a re-analysis of the deposited data

How the results depend on the processing

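For the comparison with genotype the member count of 0 became 2 with DESeq2's Wald test, 11 with no filter on low counts, 7 with the replicate block, 1 with a mitochondrial limit of 5% and 2 without integration, and 0 to 2 with 1 mouse left out. No fit with 1 mouse left out had a block, so the 7 blocked calls were not checked in that way. At 7 weeks it became 6 with no filter, 2 with the replicate block, 2 with the 5% limit and 1 without integration, and stayed at 0 with each mouse left out. At 13 weeks it became 3 with DESeq2 and 8 with no filter, and 0 to 3 with 1 mouse left out. For the interaction it became 1 with DESeq2 and 6 with no filter, and 0 to 1 with 1 mouse left out. With the sister pairs as a replicate block at each age, chosen after seeing the data, it was 4 at 7 weeks, 2 at 13 weeks and 1 for the interaction. With age the 7 members became 11 with DESeq2, 20 with no filter, 14 with the replicate block and 4 to 10 with 1 mouse left out, the lowest without the replicate 1 control or the replicate 1 mutant of 13 weeks. In endothelial cells the 4 calls with age became 0 with each cluster fitted alone, an alternative chosen after seeing the data. Over all combinations of gene and type, DESeq2 called 0.534% with genotype, 0.116% at 7 weeks, 0.205% at 13 weeks, 0.00522% for the interaction and 1.74% with age, and without the filter edgeR called 0.887, 0.354, 0.547, 0.0966 and 2.44%. With genotype and at 7 weeks it called 0.336 and 0.0575% under the 5% limit, and 0.402 and 0.0676% without integration. With 1 mouse left out it called 0.195 to 0.421% with genotype, 0.0183 to 0.0529% at 7 weeks and 0.0323 to 0.283% at 13 weeks. For the interaction these shares were 0 to 0.00914% and with age 0.721 to 2.21%. With cells of at least 2000 UMIs 0.402% were called with genotype. In pericytes the 1 call with age was also made within cluster 29 alone, chosen after seeing the data, and the interaction of Igfbp5 with the sister pairs was not (adjusted p = 0.0679, edgeR). The cause was not tested. For the other pathway genes, the 2 calls with genotype became 4 with DESeq2, 7 with no filter, 9 with the replicate block, 1 with cells of at least 2000 UMIs and 0 to 4 with 1 mouse left out (0 without the replicate 2 mutant of 13 weeks), and the 11 with age became 26 with no filter, 19 with the replicate block and 5 to 15 with 1 mouse left out. Same-numbered mice of different ages had correlations from 0.0945 to 0.238, 11 of 12 over 0.1, and replicate 1 libraries were the deeper at both ages. Since 1 of the 12 missed 0.1, the numbers were not taken as pairs across ages. For genotype with ages averaged the block is the 4 sister pairs, and for age and for the other counts at a single age or of the interaction it is the replicate number, which joins mice of both ages and is given only as an alternative. The log2 ratio of Lepr+ MSCs over OPs was 1.56 for Igfbp4 and 1.02 for Pappa without integration, where no preOB cluster was named. Of 129 alternatives to the division values, 127 moved by under 1 SD and 8 had the opposite sign. Most of the 129 left out 1 of 8 mice, which cannot move a mean of 8 ratios by 1 SD. The SD was also as large as 3.30, for Igf2. The 127 is thus no measure of stability. The 21 single calls kept their direction in all of their 350 alternatives and their call in 277. Depth limits Igf2, which rests on 0 to 37 UMIs per mouse in preOBs.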

Other observations

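Some clusters stayed out of the named types because their cells held few UMIs. One of 96 cells, led by Schwann cell markers, had Igfbp7 at 1751 ± 1150 CPM, Igfbp5 at 716 ± 963 CPM and no Igf1 UMI in the 3 mice with enough cells. One of 2089 cells was nearest to Lepr+ OPs by the naming rule, though Adipoq and Hp, of the Lepr+ MSC list, led its genes. It had Igf1 at 259 ± 95.8 CPM, Igfbp4 at 5511 ± 1110 CPM, Igfbp5 at 2896 ± 675 CPM and Pappa at 135 ± 39.7 CPM over 8 mice.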
